A study of Mus musculus with 2 samples.

Results

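The cells described here are Dcn-high cells of MC38 tumour spheroids, cells with a large share of their transcripts in 5 genes of matrix-producing cells: Dcn, Gsn, Lbp, Dpt and Cilp. They were chosen by that share. In each barcode of at least 5000 unique molecular identifiers (UMIs, single counted transcripts), 500 genes and at most 10% mitochondrial UMIs, the UMIs of the 5 genes were divided by all UMIs of the cell, and the top 10% of the pooled cells were taken. This gave 555 of 5554 kept cells, 224 of 3356 from the aPD-1 library and 331 of 2198 from the IgG library. MC38 is a mouse colon carcinoma line, grown here as tumours in C57BL/6 albino mice. Tumours were dissociated, pieces of 40 to 100 um were cultured in collagen in a microfluidic chip, and the cells were taken on day 6. One culture received an antibody against PD-1 (aPD-1, clone RMP1-14, 10 ug/mL) and the other a control antibody (IgG, clone 2A3, 10 ug/mL), with 1 library each. The cells loaded had been sorted as tumour cells, and the sources used here give neither the sort markers nor the number of tumours behind each library. The series set out to profile tumour cells that remain under PD-1 blockade. With 1 library per antibody, cells are not replicates, so no test was possible and every interval here covers counting error only.

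Decorin, the product of Dcn, is a small proteoglycan that binds collagen fibrils and the growth factor TGF-beta. Dermatopontin (Dpt) is a matrix protein that binds decorin, and Cilp is a secreted matrix protein first known from cartilage. Gelsolin (Gsn) severs and caps actin filaments, and Lbp, the lipopolysaccharide-binding protein, is a secreted acute phase protein. Fibroblasts, the cells that make most of the collagen of connective tissue, are a known source of Dcn, Dpt and the fibrillar collagen Col3a1, which was not part of the score.

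The 6 genes lie at separate places of GRCm38 (the assembly also called mm10), Dcn at chr10:97479609-97518143, Gsn at chr2:35256380-35307892, Lbp at chr2:158306493-158332852, Dpt at chr1:164796644-164824266, Cilp at chr9:65265180-65280605 and Col3a1 at chr1:45311538-45349706, all on the plus strand and annotated as protein coding. RefSeq promoter windows on GRCm38.p6, 250 bases before to 50 after a gene's start, were at hand for 4 of them (Gsn, Dpt, Cilp and Col3a1) and not for Dcn and Lbp. Those of Col3a1, the marker outside the score, and Dpt, a score gene, are shown because both held the letters TATAAA, given in capitals. The letters are a description, and nothing about the genes' levels is read from them. The Col3a1 window is chr1:45311288-45311587 and the Dpt window chr1:164796413-164796712, each on the plus strand.
Col3a1: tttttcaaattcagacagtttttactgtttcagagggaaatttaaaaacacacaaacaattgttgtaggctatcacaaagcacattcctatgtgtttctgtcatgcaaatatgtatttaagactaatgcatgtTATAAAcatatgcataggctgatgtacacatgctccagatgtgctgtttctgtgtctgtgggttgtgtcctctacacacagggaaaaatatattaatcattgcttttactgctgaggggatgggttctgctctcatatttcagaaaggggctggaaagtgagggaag
Dpt: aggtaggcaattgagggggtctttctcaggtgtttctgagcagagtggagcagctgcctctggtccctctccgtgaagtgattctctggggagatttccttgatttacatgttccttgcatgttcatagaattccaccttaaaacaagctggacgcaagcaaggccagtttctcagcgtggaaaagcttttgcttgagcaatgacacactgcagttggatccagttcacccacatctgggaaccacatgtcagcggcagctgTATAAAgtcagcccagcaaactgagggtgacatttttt
The match began 117 bases before the RefSeq start in Col3a1 and at base 12 after the RefSeq start in Dpt. For Dpt the RefSeq start, on which the window was built, is not the gene start given above. TATAAA on either strand stood in 13.6% of 32851 promoter windows of the same length, and the windows of Gsn and Cilp did not hold these letters.

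The score had no gap at the cutoff. The 5 lowest Dcn-high cells had 0.121866 to 0.122382% of their UMIs in the 5 genes, the 5 highest of the remaining cells 0.121242 to 0.121786%, and 172 cells lay within 0.01 percentage points of the cutoff. The Dcn-high cells are thus the upper end of a continuous range of the score. Their median score was 0.163% in the aPD-1 library and 0.175% in the IgG library, against 0.0216% and 0.0291% in the other cells.

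**Figure D1:**
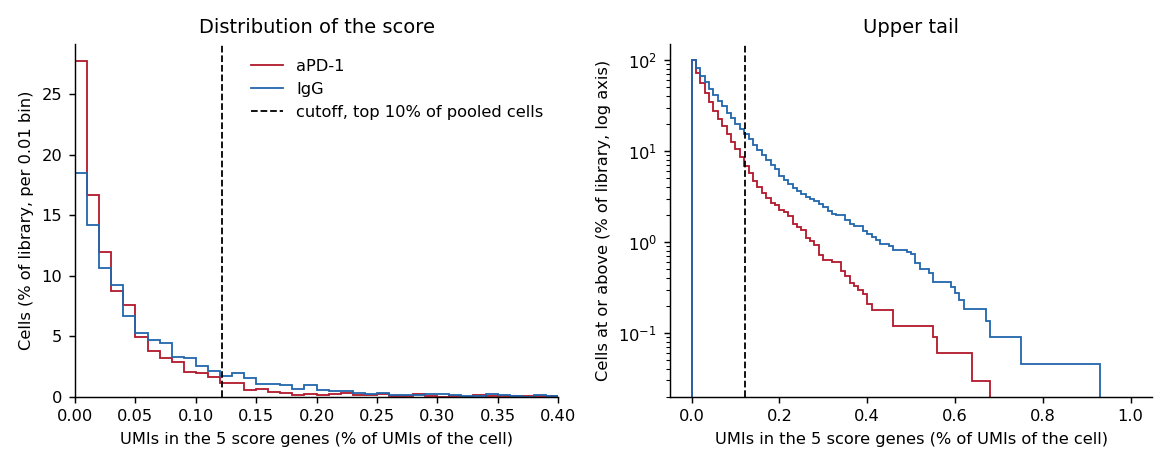
Share of each cell's UMIs in Dcn, Gsn, Lbp, Dpt and Cilp, for the aPD-1 (red) and IgG (blue) libraries; the left panel gives the percentage of the library's cells in each 0.01 bin, the right panel the percentage at or above each value on a log axis, and the dashed line is the cutoff. Neither library shows a second peak above the cutoff, and the IgG curve lies above the aPD-1 curve there, with 15.1% against 6.67% of cells to the right of the line.

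Dcn-high cells made up 6.67% of the aPD-1 cells (exact Clopper-Pearson 95% interval 5.85 to 7.57%) and 15.1% of the IgG cells (13.6 to 16.6%). The aPD-1 share was below the IgG share also when the score was taken at 5000 UMIs per cell, at 7.03% against 14.5%. With only the cells low in cell cycle transcripts kept, the shares were 10.3% in aPD-1 and 21.8% in IgG. The libraries differed in other ways at the same time. The aPD-1 matrix held 737280 barcodes and 68385785 UMIs, near-empty barcodes included, and the IgG matrix 4351 barcodes and 52720076 UMIs. Dcn-high cells had a median of 14711.5 UMIs in aPD-1 and 20417 in IgG, other cells 16769.5 in aPD-1 and 20714 in IgG. Of the kept barcodes, 8 occurred in both libraries, and 0 of these were Dcn-high in both. Culture, antibody and library cannot be told apart in this design.

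Among the genes that set the score, Dcn carried most of the UMIs. It accounted for 81.9% of the score UMIs of the aPD-1 Dcn-high cells and 74.1% of those in IgG, and was the gene with the most UMIs in 218 of 224 and 319 of 331 cells. Levels are CPM, the UMIs of a gene scaled by all UMIs of the summed cells, from 3' ends. Dcn stood at 1622 CPM in Dcn-high against 244 CPM in other cells of aPD-1, and at 1581 against 279 CPM in IgG. Because these values chose the cells, they are a description. Gsn stood at 134 against 21.2 CPM in aPD-1 and 207 against 46.2 CPM in IgG. Cilp was at 118 against 12.8 CPM in aPD-1 and 144 against 20.4 CPM in IgG. Lbp and Dpt were the sparser pair, with a median of 0 UMIs per aPD-1 Dcn-high cell for each. Lbp was at 60.5 against 5.95 CPM in aPD-1 and at 112 against 10.5 CPM in IgG, and Dpt at 45.7 against 6.38 CPM and at 88.5 against 13.8 CPM. Between the Dcn-high cells of the libraries, Dcn was nearly equal (aPD-1 over IgG 1.03-fold), while Gsn, Lbp and Dpt were lower in aPD-1 at 0.649-, 0.539- and 0.516-fold. The other cells held these genes at a like or lower fold, 0.458 for Gsn, 0.568 for Lbp and 0.462 for Dpt.

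Few cells carried the whole signature. In full depth, 21 of 224 aPD-1 Dcn-high cells (9.38%) and 66 of 331 IgG ones (19.9%) had a UMI of all 5 genes, and 15 and 13 cells had a UMI of 1 gene alone. After each cell was thinned to 5000 UMIs, at least 1 UMI of Dcn was left in 223 of 224 aPD-1 and 329 of 331 IgG Dcn-high cells, against 1757 of 3132 (56.1%) and 1124 of 1867 (60.2%) of the other cells. Thinned cells with Gsn were 40.6% against 9.45% in aPD-1 and 58.3% against 19.01% in IgG.

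Free RNA could be measured in the aPD-1 library alone. In the aPD-1 barcodes under 100 UMIs, which hold no whole cell, Dcn was at 277 CPM, Gsn at 29.8, Lbp at 6.85, Dpt at 8.97, Cilp at 11.1 and Col3a1 at 127 CPM. These values are near those of the other cells, and the Dcn-high cells stood several-fold above them for each of the 6 genes. For the 5 score genes that follows from the way the cells were chosen and is a description. Col3a1, outside the score, was at 899 CPM in the aPD-1 Dcn-high cells. The values of the near-empty barcodes are shares of UMIs and not amounts per barcode: the Dcn value rests on 1171 UMIs over 515790 barcodes. How much of the level in the other cells is free RNA was not tested. The IgG matrix holds no such barcodes. In the 24 IgG cells with at least 3 endothelial markers (median 12845.5 UMIs), a thinned Dcn UMI was left in 5 (20.8%), and in the 12 with at least 3 macrophage markers (median 23184.5 UMIs) in 6.

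The 5 genes marked overlapping cells. Each was left out in turn and the top 10% chosen by the other 4. The gene left out, with no part in that ranking, was higher in the chosen cells of both libraries. The cells were chosen with earlier results of these data known, so these values are a description and no independent support. Dcn, left out, was at 1090.0 CPM against 289.96 CPM in aPD-1 (3.76-fold, counting interval 3.61 to 3.91) and at 1153 against 352 CPM in IgG (3.28-fold, 3.19 to 3.37). Lbp, left out, was 7.72-fold higher in aPD-1 and 7.64-fold in IgG, Cilp 6.38- and 4.47-fold, Dpt 5.25- and 5.01-fold, and Gsn 5.10- and 3.82-fold. The choice of cells hung on Dcn more than on the rest: without it 306 of the 555 cells (55.1%) were chosen again, against 91.2 to 95.9% without any one of the other genes.

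The label of these cells as fibroblast-like was met in part. Col3a1 was at 899 against 142 CPM in aPD-1 (6.35-fold, 6.09 to 6.61) and at 959.9 against 187 CPM in IgG (5.13-fold, 4.96 to 5.30). Of 16 fibroblast markers outside the score, 9 reached 10 CPM, and 4 (Col3a1, Col1a1, Col6a1 and Col6a2) were at least 2-fold higher in both libraries. Over all genes, 84 of 6881 (1.22%) were counted higher in both. A wider list of universal fibroblast genes had 3 of 12 genes counted higher in aPD-1 and 2 of 12 in IgG. Its median log2 ratios were 0.63 and 0.44. The receptor genes Pdgfra and Pdgfrb were 1.61- to 1.93-fold higher, under that bound. Thy1, a surface antigen of many fibroblasts, and Pi16 had 0 UMIs in the Dcn-high cells of both libraries. Lum, a relative of Dcn, had 1 UMI in each. Col1a2, whose product pairs with that of Col1a1 in type I collagen, was at 1.93 and 3.17 CPM, from 7 UMIs in aPD-1 and 22 in IgG, while Col1a1 stood at 315 and 335 CPM. Vim, the intermediate filament gene of mesenchymal cells, was high in every group, at 2541 against 1681 CPM in aPD-1 and 2601 against 1848 CPM in IgG. For these reasons the cells are called by their leading gene. 

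Markers of most other cell types had low sums in the Dcn-high cells, with cartilage markers as the exception. The 4 cartilage markers summed to 516 against 421 CPM in aPD-1 and to 453 against 353 CPM in IgG, nearly all of it Sox9 (1.22- and 1.28-fold, not counted), while Acan and Comp were at 0. The 7 epithelial markers together had 0 UMIs in the aPD-1 Dcn-high cells and stood at 0.433 CPM in the IgG ones. The 9 T or NK cell markers summed to 1.38 CPM (aPD-1) and 1.01 CPM (IgG), and the 4 B cell markers to 2.75 and 3.75 CPM. The 4 dendritic cell markers summed to 9.90 against 7.25 CPM in aPD-1 and 11.1 against 8.43 CPM in IgG, with 3 of the 4 at 0 in each. Macrophage markers (10 genes) summed to 23.1 CPM against 9.68 CPM in other cells of aPD-1 and to 27.8 against 47.2 CPM in IgG, most of it Ctss, a lysosomal protease also made outside macrophages, and endothelial markers (9 genes) to 17.9 against 20.8 CPM and 31.0 against 62.4 CPM. Pericyte markers (8 genes) summed to 30.8 against 16.0 CPM in aPD-1 and 25.2 against 16.9 CPM in IgG, and 1 of them, Cspg4, was counted higher in aPD-1 (2.01-fold, against 1.78-fold in IgG). The defining macrophage genes Lyz2 and C1qa were each below 1 CPM in the Dcn-high cells of both libraries, and Rgs5 of pericytes was at 0.

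To see what else distinguished the Dcn-high cells, their summed UMIs were set against those of the other cells within each library. A gene was counted when the mean of both sums was at least 10 CPM, the ratio at least 2-fold and its exact 95% counting interval beyond 1.5-fold. The 5 score genes were left out. In aPD-1, 267 of 7020 genes (3.8%) were higher and 53 (0.755%) lower. In IgG, 105 of 7174 genes (1.46%) were higher and 49 (0.683%) lower. Of the 6881 genes measured in both, 84 (1.22%) were higher in both libraries and 22 (0.32%) lower in both. 0 genes were counted in opposite directions. Over all genes the median log2 ratio was 0.14 in aPD-1 and 0.10 in IgG, and median-of-ratios scaling, which centres it, gave 46 genes higher and 42 lower in both libraries.

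**Figure D2:**
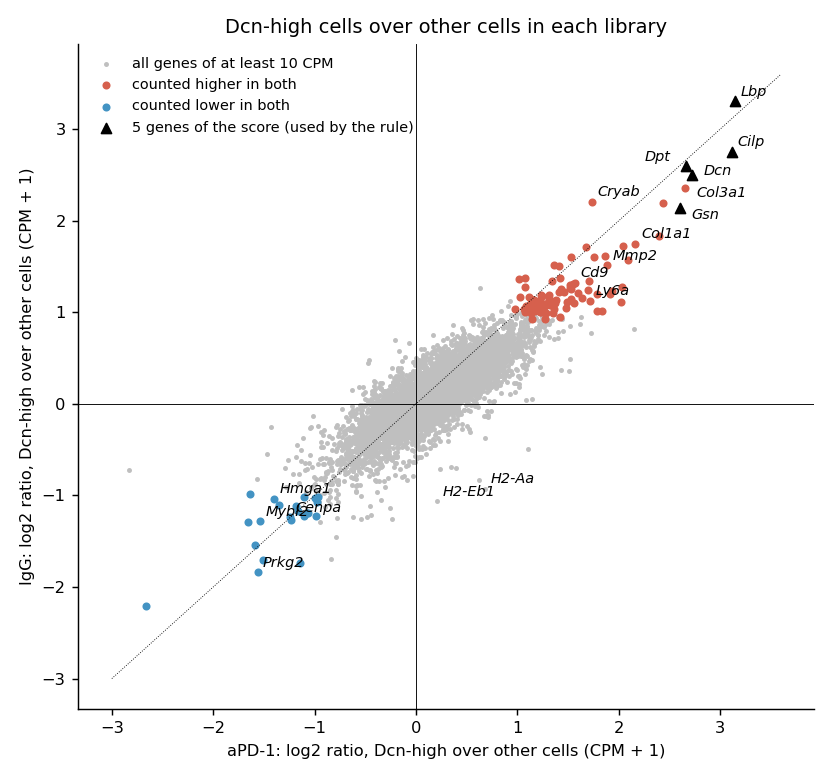
Log2 ratio of Dcn-high over other cells for genes of at least 10 CPM in both comparisons, with the aPD-1 library on the horizontal and the IgG library on the vertical axis (1 CPM added to each level); red and blue points are genes counted as higher or lower in both libraries, triangles the 5 genes that chose the cells, and the dotted line marks equal ratios. Genes counted in both lie near the line, most of the higher ones below it since 73 of 84 had the larger ratio in aPD-1, and H2-Aa and H2-Eb1 lie at opposite signs in the libraries.

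Matrix genes led the higher group. After Col3a1, Col1a1 was at 315 against 69.4 CPM in aPD-1 (4.53-fold) and 335 against 98.97 CPM in IgG (3.39-fold). Matn2, which encodes the matrix linker matrilin 2, was at 131 against 35.2 CPM in aPD-1 and 153 against 49.5 CPM in IgG. Both groups of cells held Emilin1, an elastic fibre protein, and Dcn-high cells held more of it, 113 against 38.7 CPM and 131 against 52.8 CPM. The chains of collagen VI, a microfibril of the cell's surroundings, were higher too, Col6a1 at 1108 against 475 CPM and 1147 against 524 CPM, and Col6a2 at 772 against 296 CPM and 898 against 409 CPM. Enzymes that finish collagen followed, P4ha2, a prolyl hydroxylase subunit, at 2.71-fold in aPD-1 and 2.89-fold in IgG, and Pcolce, which speeds the cutting of procollagen, at 2.97- and 2.16-fold. The protease genes Mmp2 (3.93- and 3.02-fold) and Mmp14 (2.41- and 2.11-fold), whose product activates that of Mmp2, and Htra1 (2.36- and 2.01-fold) were counted in both libraries.

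As lists, the matrix genes stood above the median of all genes in both libraries. For the counts below, the share counted higher among all genes was 3.8% in aPD-1 and 1.46% in IgG. Of 17 fibrillar collagens and their regulators, 8 reached 10 CPM, with 4 higher in aPD-1 and 2 in IgG, none lower, and a median log2 ratio of 0.97 in aPD-1 and 0.67 in IgG. The collagen VI and basement membrane list gave 0.76 and 0.91, with 3 genes higher of 8 in aPD-1 and 3 of 9 in IgG. The small proteoglycans and matrix glycoproteins, of which 7 of 29 reached 10 CPM, gave 0.84 and 1.01, the matrix proteases and inhibitors 0.88 and 0.75, and the collagen processing enzymes 0.76 and 0.74. Members of these lists were not all higher. Thbs2, an adhesive matrix protein, was at 0.702-fold in aPD-1 and 0.886-fold in IgG, and the protease inhibitor Timp1 at 1.19- and 1.09-fold. Genes of contractile myofibroblasts were near the median of all genes, with 0 of 5 counted in either library, a median of 0.20 in aPD-1 and 0.04 in IgG, and Tpm1, a tropomyosin, at 0.736- and 0.766-fold.

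**Figure D3:**
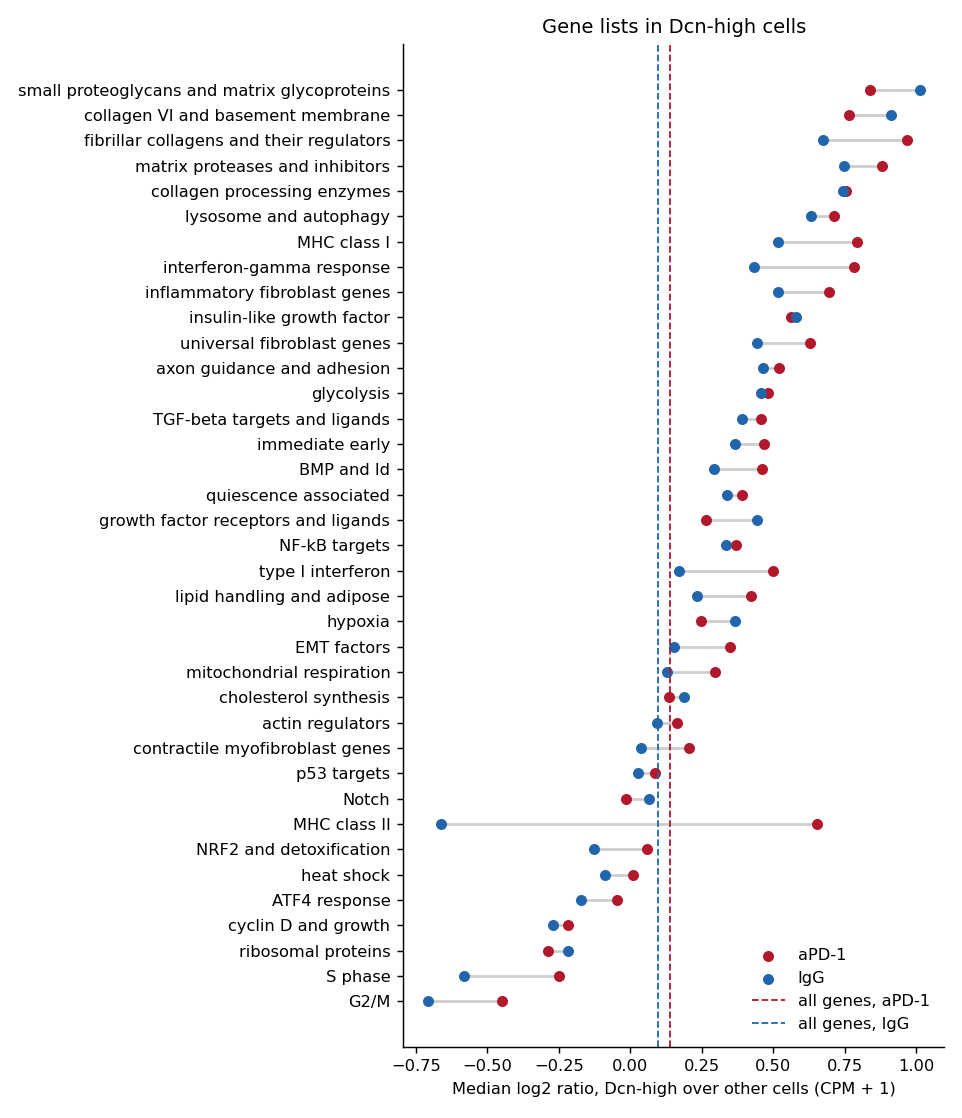
Median log2 ratio of Dcn-high over other cells for each gene list with at least 5 members of 10 CPM or more, in aPD-1 (red) and IgG (blue), ordered by the mean of both; dashed lines mark the median of all genes. Matrix lists lie highest, the cell cycle lists lowest at -0.45 and -0.71 for G2/M, and the MHC class II list is the one with well separated points, at 0.65 in aPD-1 and -0.66 in IgG.

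Early complement genes were among the highest ratios outside the score. C1s1, a protease of the first complement component, was at 18.7 against 2.65 CPM in aPD-1 (7.07-fold, 5.23 to 9.46) and at 23.6 against 4.38 CPM in IgG (5.40-fold, 4.35 to 6.70). It lay close to the 10 CPM bound, with 68 UMIs in 45 aPD-1 Dcn-high cells and 164 in 92 IgG ones. C1ra, its partner protease, was at 17.6 against 5.46 CPM and at 27.1 against 8.21 CPM. The other measured acute phase gene near this level, Cp, which encodes ceruloplasmin, was at 0.814- and 0.701-fold, and Saa3, Lcn2 and further members of the list were below 10 CPM.

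Genes outside the matrix lists were also counted higher in both libraries. Cd9, a tetraspanin, was at 493 against 166 CPM in aPD-1 and 662 against 264 CPM in IgG. Cpq, a plasma carboxypeptidase, was at 96.3 against 17.5 CPM and 118 against 32.3 CPM. Cryab, a small heat shock protein, had the larger ratio in IgG, at 36.9 against 10.4 CPM in aPD-1 (3.55-fold) and 33.01 against 6.35 CPM in IgG (5.20-fold), although the heat shock list had medians of 0.01 and -0.09. Cryab rested on 25 aPD-1 and 38 IgG Dcn-high cells, with 23.9% and 25.8% of its UMIs in 1 cell. Pmepa1, a target and inhibitor of TGF-beta signalling, was 2.63-fold higher in aPD-1 and 2.62-fold in IgG, and Lpar1, a lysophosphatidic acid receptor, 3.90- and 3.34-fold. Nos2, the inducible nitric oxide synthase, was at 17.3 against 6.12 CPM and 24.8 against 8.05 CPM. Il33, an alarmin of stromal cells, was at 44.00 against 11.6 CPM and 42.2 against 20.5 CPM, the single inflammatory fibroblast gene counted in both libraries, while the chemokine Cxcl1 of that list was at 0.774- and 0.917-fold. Ighm, the heavy chain of immunoglobulin M, was 4.78-fold higher in aPD-1 and 3.59-fold in IgG, and the B cell markers, as given above, were near 0. The remaining genes among the 25 with the highest ratios (Selenbp1, Fxyd1, Mfge8, Tubb2a, Hpse, Btd, Tns1, Pmp22, Ifi27l2a and Foxs1) were 2.45- to 4.62-fold higher.

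Ly6a, the surface antigen also called Sca-1, was at 177 against 53.3 CPM in aPD-1 (3.33-fold) and 146 against 66.5 CPM in IgG (2.20-fold). Thinned cells with a Ly6a UMI were 37.9% against 17.4% in aPD-1 and 31.4% against 18.0% in IgG. Among cells low in cell cycle transcripts the log2 ratio of Ly6a was 0.32 in IgG, against 1.13 with all cells. In aPD-1 it was 1.30, against 1.72. Without the cells that had 3 or more macrophage or endothelial markers it was 1.77 in aPD-1 and 1.48 in IgG. Cd34, another surface antigen of fibroblast progenitors, was 2.45- and 2.15-fold higher. Snai1, a transcription factor of mesenchymal transition, was at 70.95 against 47.1 CPM and 76.1 against 68.9 CPM, under the 2-fold bound. Cells with thinned UMIs of both Ly6a and Snai1 were 8.48% of Dcn-high and 4.34% of other aPD-1 cells, and 8.16% and 5.36% in IgG.

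Transcripts of cell division took a smaller part of the UMIs in Dcn-high cells. After thinning to 5000 UMIs, 29.0% of the aPD-1 Dcn-high cells had more cell cycle UMIs than the pooled median of 19, against 52.97% of the other cells, and in IgG 23.6% against 51.2%. Of 54 G2/M genes, 39 reached 10 CPM in aPD-1, with 2 lower and a median log2 ratio of -0.45, and 40 in IgG, with 9 lower and a median of -0.71. The share counted lower among all genes was 0.755% in aPD-1 and 0.683% in IgG. Cenpa, which marks centromeres, was at 46.2 against 110.3 CPM in aPD-1 and 48.4 against 116 CPM in IgG. Cenpf, a kinetochore protein, was at 0.494- and 0.476-fold, and the proliferation marker Mki67 at 0.758- and 0.582-fold, short of the 2-fold bound. The S phase list (39 genes of 10 CPM) had medians of -0.25 and -0.58, with Hells, a chromatin remodeller, at 50.3 against 101 CPM and 53.6 against 126 CPM, the one gene lower in both. Mybl2, a transcription factor of dividing cells, was at 16.2 against 49.04 CPM and 13.3 against 33.6 CPM.

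Since these transcripts moved with the score, the counts were repeated among cells at or below that median. There, 29 genes were higher and 7 lower in both libraries, against 84 and 22 with all cells, and the G2/M medians were -0.07 in aPD-1 and -0.07 in IgG. These cells were chosen for few cell cycle UMIs, which leaves less room for a G2/M difference, so the G2/M medians are a description. The fibrillar collagen list still stood at 0.66 in aPD-1 and 0.53 in IgG.

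Further genes lower in Dcn-high cells were not of the cell cycle lists. Hmga1, a chromatin protein abundant in embryonic and tumour cells, was at 36.3 against 97.4 CPM in aPD-1 and 35.03 against 72.96 CPM in IgG, and its relative Hmga2 at 27.5 against 68.5 CPM and 16.7 against 32.2 CPM, counted in aPD-1. Ahr, the receptor for aryl hydrocarbons, was at 10.7 against 36.1 CPM and 8.07 against 21.2 CPM. Prkg2, a cGMP-dependent kinase, was at 11.8 against 36.9 CPM and 5.33 against 21.7 CPM. Etv4, an ETS transcription factor, was at 0.283- and 0.475-fold, Tnnt2, a troponin, at 0.465- and 0.420-fold, and Ankrd1, a target of YAP signalling, at 0.440- and 0.286-fold. The Ankrd1 UMIs lay in 22 aPD-1 and 36 IgG Dcn-high cells, with 24.3% and 28.6% of them in 1 cell. Il1rl1, the receptor for the product of Il33, was at 4.40 against 19.9 CPM in aPD-1, where it was counted, and 2.16 against 6.59 CPM in IgG. The remaining named lower genes (Dffb, Fam159b, Fam60a, Dnph1, Whrn, Fam64a and Fam195a) were at 0.277- to 0.465-fold. Ribosomal protein genes were lower by less than 2-fold, with medians of -0.29 and -0.22 over 34 genes. Of the quiescence associated genes, Mxd4, an antagonist of Myc, was at 67.7 against 24.95 CPM in aPD-1 and 69.8 against 35.8 CPM in IgG, and Zbtb20 and Osr2 were 1.66- to 1.94-fold higher.

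MHC class I is the display of antigen read by CD8 T cells, and the median of its list stood above that of all genes in both libraries. The 25 genes of that list summed to 13855 against 7408 CPM in aPD-1 and 14826 against 9192 CPM in IgG. H2-D1 and H2-K1, the heavy chains, were at 2563 against 1081 CPM and 1956 against 876 CPM in aPD-1, and at 2947 against 1518 CPM and 2175 against 1127 CPM in IgG. These ratios were smaller than those of Col3a1 and Col1a1. Of 20 genes at 10 CPM, 6 were counted higher in aPD-1 (median log2 ratio 0.79), and of 19 in IgG 0 were counted (median 0.52). In IgG, H2-D1 and H2-K1 lay just under the 2-fold bound. The share counted higher among all genes was 3.8% in aPD-1 and 1.46% in IgG. Tap2, which helps carry peptides into the endoplasmic reticulum, was at 2.75- and 1.91-fold. The interferon-gamma response list had 7 of 19 genes higher in aPD-1 (median 0.78) and 0 of 18 in IgG (median 0.43), with Gbp2, an interferon-induced GTPase, at 389 against 169 CPM and 289 against 171 CPM. The chemokine Cxcl10 was at 1.07- and 0.872-fold. Of 27 type I interferon genes at 10 CPM, 4 were counted higher and 0 lower in aPD-1 (median 0.50). In IgG 1 was counted higher and 2 lower (median 0.17). The share counted lower among all genes was 0.755% in aPD-1 and 0.683% in IgG. Ifi27l2a was at 526 against 179 CPM in aPD-1 and 648 against 262 CPM in IgG.

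Of 27 lysosome and autophagy genes at 10 CPM, 9 were counted higher in aPD-1 and 2 in IgG, with medians of 0.71 and 0.63. The shares among all genes were 3.8% and 1.46%. Psap, the precursor of saposins that help break down sphingolipids, was at 189.8 against 80.4 CPM in aPD-1 and 223 against 109 CPM in IgG, and Man2b1, a lysosomal mannosidase, at 31.9 against 11.9 CPM and 38.2 against 18.8 CPM. Glycolysis genes had medians of 0.48 and 0.46, hypoxia genes 0.25 and 0.36, and cholesterol synthesis genes 0.14 and 0.19, the last close to the median of all genes.

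Several of these differences were graded along the score, not confined to its top. The cells were put in 6 bands by their percentile of the pooled score, of which the bands above the 90th percentile are the Dcn-high cells. Col3a1 was at 61.9 CPM in the aPD-1 cells below the 50th percentile, 474 CPM in the 80th to 90th, 737 CPM in the 90th to 95th and 1619 CPM in the top 1% (15 cells). In IgG the same bands had 76.8, 473, 654 and 2254 CPM, with 40 cells in the top 1%. Col3a1 thus climbed in each step of both libraries, also below the cutoff. The MHC class I list climbed likewise, with 6548, 10494, 12151 and 20047 CPM in those bands of aPD-1 and 8244, 11352.5, 12972 and 21591 CPM in IgG. The G2/M list ran the other way, at 3922 CPM in the lowest band and 1607 CPM in the top 1% of aPD-1, and at 4420.3 and 1254 CPM in IgG, with 1 step against this order in aPD-1, where the 90th to 95th percentile held 2525 CPM and the 95th to 99th 2904 CPM. Other genes did not climb in each step. In aPD-1, Pdgfra was at 45.2 CPM in the 80th to 90th percentile and 37.8 CPM in the 90th to 95th, and Mmp2 at 32.4 and 28.1 CPM. From the 90th to 95th to the 95th to 99th percentile of aPD-1, Ly6a went from 174 to 150 CPM and Col1a1 from 296 to 250 CPM. Median UMIs per cell lay between 13729 and 17728 over the aPD-1 bands and between 20039 and 21333 over the IgG bands.

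**Figure D4:**
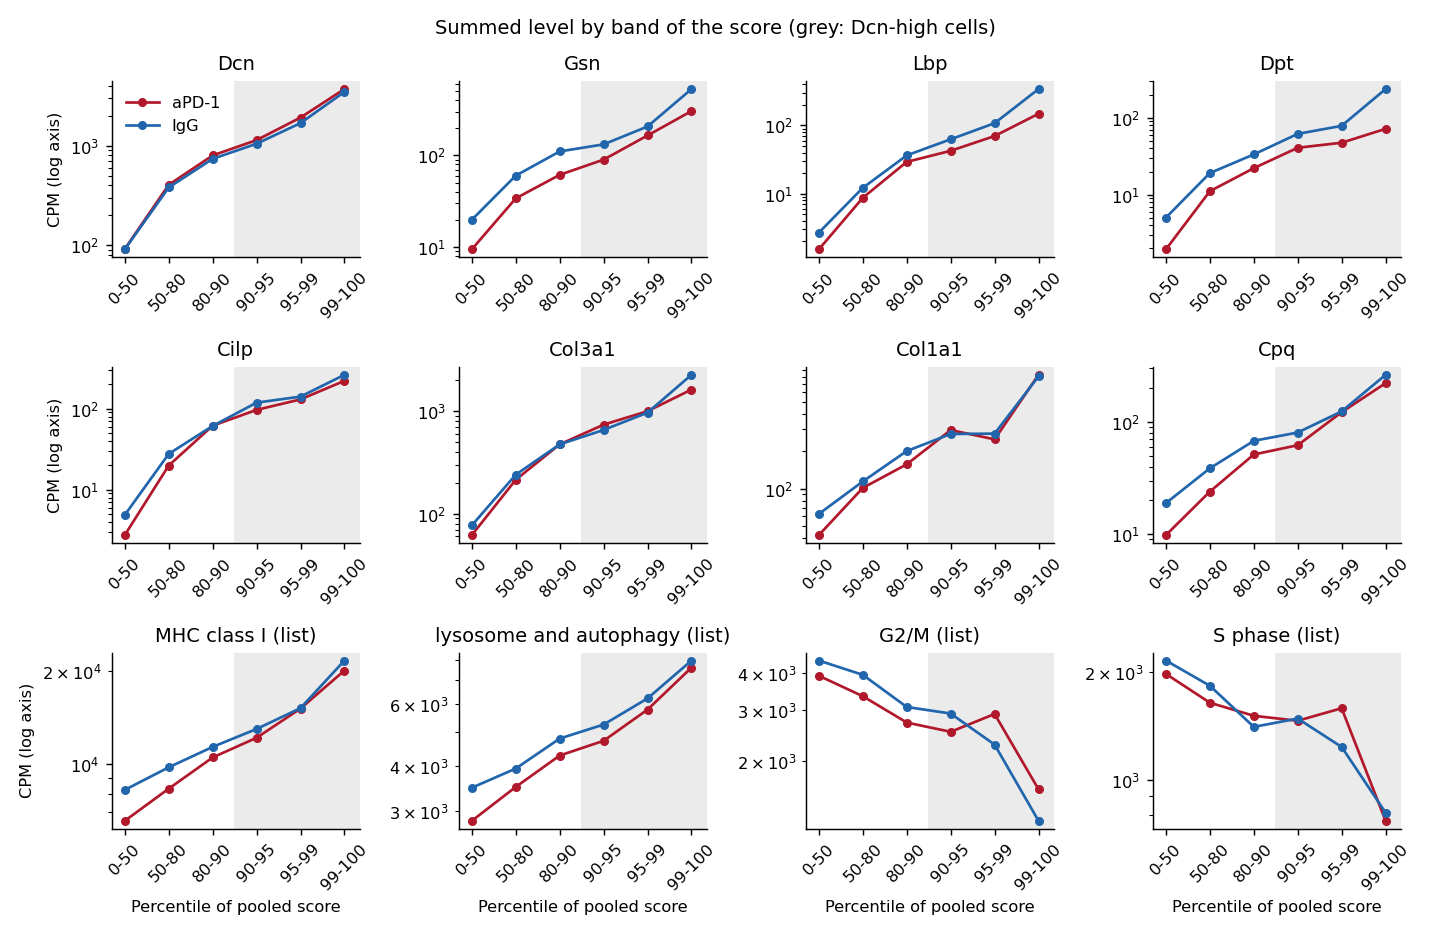
Summed level in CPM (log axis) by band of the pooled score for the 5 score genes (which set the bands), Col3a1, Col1a1, Cpq and 4 gene lists, in aPD-1 (red) and IgG (blue); the grey area holds the Dcn-high cells, and axes differ between panels. Col3a1, Cpq, the MHC class I list and the lysosomal list climb from the lowest band on, Col1a1 jumps in the top 1% to 829 CPM (aPD-1) and 805 CPM (IgG), and the cell cycle lists are lowest there.

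Between the libraries, Dcn-high cells resembled each other in most genes. Of 7195 genes, 11 (0.153%) were counted higher in aPD-1 than in IgG Dcn-high cells and 22 (0.306%) lower. The ratio lay within 1.5-fold for 95.7% of genes. Of the 33 counted genes, 27 had the same sign in the other cells, and 8 were counted there too. The matrix genes were among those that did not pass, Col3a1 at 0.937-fold (0.898 to 0.977) and Col1a1 at 0.939-fold.

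Antigen presentation on MHC class II, the display read by CD4 T cells, had the largest median log2 ratio between the libraries among the lists with at least 5 genes of 10 CPM, 1.09 over 6 genes. H2-Aa stood at 40.4 CPM in aPD-1 Dcn-high cells against 14.7 CPM in IgG ones (2.75-fold, 2.12 to 3.57), and at 24.8 and 28.9 CPM in other cells. Cd74, the chaperone of class II molecules, was at 74.3 and 29.1 CPM in Dcn-high cells (2.55-fold), and at 47.9 and 52.8 CPM in other cells. H2-Eb1 and H2-Ab1 were 2.48- and 2.05-fold higher in aPD-1 Dcn-high cells, against 0.952- and 0.637-fold in other cells. These 4 of the 6 list genes at 10 CPM were counted higher in aPD-1 among Dcn-high cells. Over all genes the count was 11 of 7195 (0.153%). None of the 4 was counted among the other cells, where the interval of H2-Eb1 (0.861 to 1.05) spanned 1. In the near-empty aPD-1 barcodes under 100 UMIs, H2-Aa was at 68.95 CPM, Cd74 at 123 CPM, H2-Ab1 at 74.6 CPM and H2-Eb1 at 54.1 CPM, above the aPD-1 Dcn-high level of each, and Lyz2 and C1qa were at 42.3 and 50.5 CPM there. These are shares of UMIs and not amounts per barcode. For H2-Aa they rest on 292 UMIs over 515790 barcodes, beside 147 UMIs in 224 aPD-1 Dcn-high cells. The IgG free RNA could not be measured. The UMIs were spread over 47 aPD-1 and 39 IgG Dcn-high cells for H2-Aa, with at most 11.8% in 1 cell. Macrophages carry class II genes at high levels. The macrophage marker sums given above were 23.1 CPM in Dcn-high against 9.68 CPM in other cells of aPD-1. In IgG they were 27.8 against 47.2 CPM. Lyz2 and C1qa were below 1 CPM in the Dcn-high cells of both libraries. Whether the Dcn-high cells made the class II transcripts themselves, or macrophages or free RNA added to them, was not tested. Without the cells that had 3 or more macrophage or endothelial markers, the class II median log2 ratio of Dcn-high over other cells was 0.68 in aPD-1 and -0.18 in IgG, against 0.65 and -0.66 with them, and the log2 ratio of H2-Aa between the Dcn-high cells of the libraries was 1.59, against 1.40 with them. With Dcn left out of the score, the log2 ratios between the libraries were 0.22 for H2-Aa (1.40 with it), 0.49 for Cd74, 0.54 for H2-Eb1 and 0.09 for H2-Ab1. H2-Ab1 was no longer counted in 11 of 20 alternatives and H2-Eb1 in 10.

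The interferon-induced genes Ifit3, Ifit3b and Gbp4 were also counted higher in aPD-1. Ifit3 stood at 114 CPM in aPD-1 Dcn-high cells against 53.8 CPM in IgG ones (2.12-fold, 1.84 to 2.45), and at 51.2 and 51.7 CPM in other cells. Its close relative Ifit3b was at 36.03 and 15.7 CPM, and near-identical copies may share reads. Gbp4 was at 55.6 and 23.8 CPM (2.34-fold). Ifit3 was no longer counted in 8 of 20 alternatives, Ifit3b in 6 and Gbp4 in 4. Over their lists, the median log2 ratio of aPD-1 over IgG Dcn-high cells was 0.22 for 27 type I interferon genes and 0.27 for 20 interferon-gamma response genes, beside -0.04 for all genes. Mical2, an oxidase that takes actin filaments apart, was 2.11-fold higher in Dcn-high and 2.22-fold in other cells, and Tcf19, a gene of dividing cells, 2.41- and 1.44-fold. Mical2 was no longer counted in 7 of 20 alternatives and Tcf19 in 12, and the log2 ratio of Tcf19 was 0.29 among low-cycling cells, against 1.14 with all cells. The chemokine Ccl4, at 15.95 and 4.18 CPM, rested on 58 UMIs in 4 aPD-1 cells and 29 UMIs in 6 IgG cells, and its direction turned with the top 5% chosen, to a log2 ratio of -2.31.

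On the IgG side, Hes1, a transcription factor of the Notch pathway, stood at 37.7 CPM in aPD-1 Dcn-high cells against 113 CPM in IgG ones (0.334-fold, 0.276 to 0.401), and at 38.4 and 138 CPM in other cells. Hspa1b, an inducible heat shock protein, was at 16.2 and 56.2 CPM (0.289-fold), and 0.402-fold in other cells. These differences thus ran through both groups of cells. Spib, an ETS transcription factor, was at 22.6 and 51.04 CPM in Dcn-high cells and 9.49 and 22.7 CPM in other cells, so it was higher in Dcn-high cells of each library and lower in aPD-1 in both groups. Il12a, a subunit of interleukins, was at 7.15 and 28.8 CPM in Dcn-high cells and 2.56 and 6.61 CPM in other cells, and Rarres2, the precursor of chemerin, at 12.9 and 31.6 CPM and 4.03 and 7.46 CPM. Ptgds, a prostaglandin synthase, was 0.218-fold, the Wnt receptor Fzd2 0.426-fold, Wdr70 0.352-fold and Gad1, an enzyme of GABA synthesis, 0.212-fold, the last with 27.8% of its IgG UMIs in 1 cell. Fzd2 was no longer counted in 14 of 20 alternatives, with log2 ratios of -1.40 to -0.80, and Gad1 in 5.

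Igfbp7, Prg4 and Igfbp3 had very low ratios that rested on few cells. Igfbp7, an insulin-like growth factor binding protein, had 0 UMIs in 224 aPD-1 and 242 UMIs in 11 of 331 IgG Dcn-high cells, with 65.7% in 1 cell. Taken against a floor of 3 UMIs over the summed cells (0.825 CPM), it was at least 42.3-fold lower in aPD-1. In the other cells its level was 6.24 CPM with aPD-1 and 55.9 CPM with IgG. The endothelial markers summed to 17.9 CPM in aPD-1 Dcn-high cells against 31.0 CPM in IgG ones. Endothelial cells also make Igfbp7, and whether they added to its level here was not tested. Without the cells that had 3 or more macrophage or endothelial markers, the log2 ratio of Igfbp7 between the libraries was -3.71, against -5.17 with them, and Igfbp7 was no longer counted. That of Igfbp3 was -0.31, against -4.11. In the near-empty aPD-1 barcodes Igfbp7 was at 10.6 CPM. Prg4, the lubricin gene, had 0 and 351 UMIs, with 98.9% of the IgG UMIs in 1 cell, and Igfbp3 1 and 146 UMIs, with 97.3% in 1 IgG cell, so in Dcn-high cells each describes 1 cell of the IgG library. In the other cells Igfbp3 was at 2.08 CPM in aPD-1 against 34.5 CPM in IgG (0.0601-fold), counted lower.

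**Figure D5:**
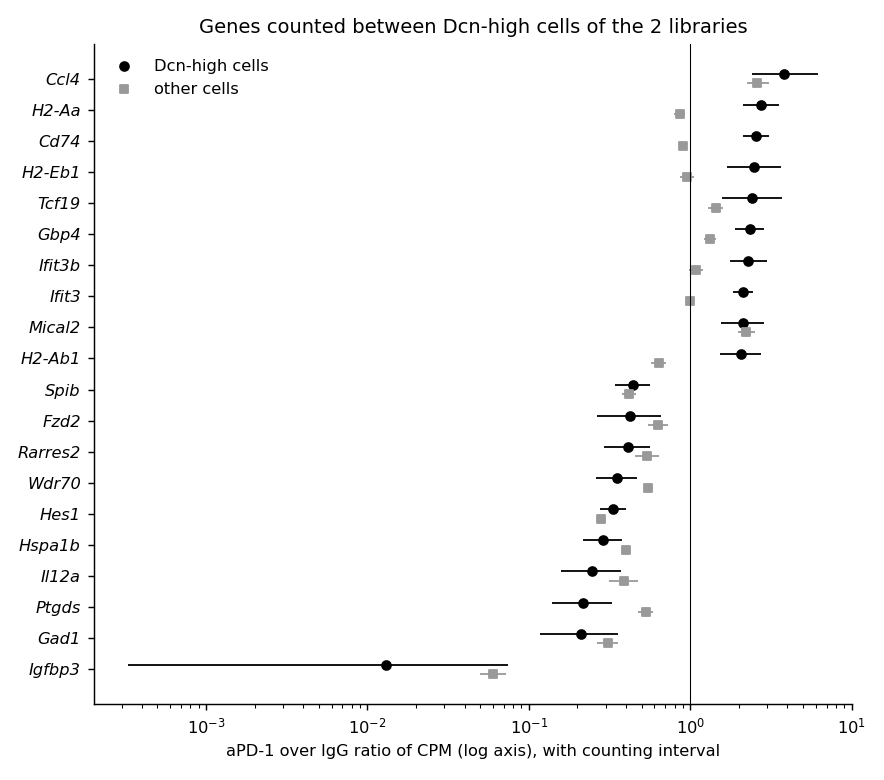
Ratio of aPD-1 over IgG levels (log axis) for the named genes counted between Dcn-high cells of the libraries, in Dcn-high cells (black circles) and other cells (grey squares), with exact counting intervals as lines; Igfbp7 and Prg4, at 0 UMIs in aPD-1 Dcn-high cells, are not drawn. Black and grey points lie on the same side for the genes lower in aPD-1, while H2-Aa, Cd74, H2-Eb1 and H2-Ab1 lie above 1 in Dcn-high cells and below 1 in other cells, where none of the 4 was counted.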

How the data were processed

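Single-cell 3' libraries of MC38 spheroid cells, 1 with aPD-1 and 1 with IgG, were deposited as UMI counts per gene (28692 genes) and barcode, raw counts that per the file headers came from Cell Ranger 3.0.2. The submitters' processing notes name Cell Ranger, Seurat 2.1.0 and the build mm10; the sources used here do not give the gene annotation.

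Barcodes with at least 5000 UMIs, 500 genes and at most 10% mitochondrial UMIs were kept, which left 3356 aPD-1 cells and 2198 IgG cells. UMIs were summed per library over Dcn-high and over other cells and scaled to CPM with numpy 2.4.6. The deepest cells held up to 71494 UMIs in aPD-1 and 86568 in IgG. Ratios carry exact conditional binomial 95% intervals and shares exact Clopper-Pearson intervals (scipy 1.17.1), all for counting error only. Log2 ratios carry a pseudocount of 1 CPM, which understates differences of low genes. Detection of a gene and cell cycle UMIs per cell were taken after thinning every cell to 5000 UMIs, which left no cell out. Doublets were not called. For 58 gene symbols that stand on more than 1 line, the line with the most UMIs was used. Of 936 listed symbols, 6 did not match and were not used here.

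With 1 library per antibody, no p-value was computed. The cells and the gene lists were chosen with earlier results of these data known, so no count is independent support. Genes named are the 25 highest and 15 lowest counted in both libraries, up to 12 each way between libraries, up to 4 extreme members of each list and a set list around the score genes, without ribosomal, mitochondrial and haemoglobin genes or unnamed gene models; other genes of the lists, and Lyz2, C1qa, Rgs5, Lum and Pi16 as markers, were chosen after their values were seen. The steps were tested on simulated counts. Reads can be shared by near-identical genes (the H2 genes, or Hspa1a and Hspa1b). Gene coordinates come from GENCODE M21 on GRCm38 and promoter sequences from RefSeq. Alternatives covered the cutoff, the filters, each score gene left out, the scaling and the cells entered.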

Additional observations from a re-analysis of the deposited data

Results flagged for a closer look

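The MHC class II list had a median log2 ratio of Dcn-high over other cells of 0.65 in the aPD-1 library and -0.66 in the IgG library. It was picked out because the medians of the libraries had opposite signs, with 6 genes at 10 CPM or more in each. The difference between the libraries was not tested, since each antibody has 1 library. With Dcn left out of the score the medians were 0.38 in aPD-1 and 0.05 in IgG, and without cells of 3 or more macrophage or endothelial markers they were 0.68 and -0.18. In the near-empty aPD-1 barcodes under 100 UMIs the list summed to 389.9 CPM, above the 254 CPM of the aPD-1 Dcn-high cells. These are shares, from 1651 UMIs over 515790 barcodes and 924 UMIs in 224 Dcn-high cells. Whether the Dcn-high cells made the transcripts themselves was not tested.

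Barcodes outside the filters were picked out because they carry the signature in data the comparisons did not use. Of barcodes with 2000 to under 5000 UMIs, 7.37% (7 of 95) lay at or above the score cutoff in aPD-1 and 14.8% (13 of 88) in IgG. Of barcodes with 5000 UMIs or more and over 10% mitochondrial UMIs, the share was 9.88% (8 of 81) in aPD-1 and 22.5% (20 of 89) in IgG. The order of the libraries was the one seen among kept cells, 6.67% in aPD-1 and 15.1% in IgG, and no test was made.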

How the results depend on the processing

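No paired analysis was possible because each antibody has 1 library. In the list that follows, "higher" and "lower" are counts of genes in Dcn-high over other cells of both libraries (84 and 22 as reported), and "between" counts are aPD-1 over IgG Dcn-high cells (11 higher and 22 lower as reported). The top 5% gave shares of 3.04% in aPD-1 and 8.01% in IgG, 131 higher and between 22 higher. The top 20% gave shares of 15.5% and 26.8%, 54 higher and 9 lower. The top 10% within each library gave between 23 higher. The score at 5000 UMIs per cell gave between 6 higher and 13 lower. Leaving Gsn or Cilp out of the score gave 14 lower each, and leaving Dcn out 59 lower and between 18 higher. Low-cycling cells alone gave shares of 10.3% and 21.8%, 29 higher and 7 lower, median-of-ratios scaling 46 higher and 42 lower, and no CPM floor 137 higher, 47 lower and between 29 higher and 67 lower. Chosen after seeing the data were dropping each gene's highest cell (36 lower), asking for UMIs of 3 or more score genes (shares of 4.68% and 12.6%) and keeping the 90th to 95th percentile alone (27 higher and 7 lower). The cause of these moves was not tested. The order of the shares was the same under each, aside from the choice within each library, which fixes them. Of named gene ratios in Dcn-high over other cells, 1588 of 1700 values kept their side of the threshold, 112 did not and 0 changed sign. Between libraries 315 of 440 did and 123 did not, and 2 changed sign: Ccl4 with the top 5% (log2 ratio -2.31) and Igfbp3 among low-cycling cells (0.0047). Depth limits genes near 10 CPM, such as C1s1. Of list medians, 1364 of 1406 moved by at most 0.25 on the log2 scale.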
